A study of Arabidopsis thaliana with 7 samples.

Results

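The genes described here are 31 genes of Arabidopsis thaliana that lay nearest to a binding site of the clock protein CCA1 and whose description names lipids or lipid enzymes. They were chosen by text: the nearest gene of a peak in either deposited list was taken when its description held the words lipid, fatty acid, acyl, lipase, desaturase, sterol or wax. Descriptions with transport, kinase, ubiquitin, RING or transcription factor were left out. The 31 genes are part of 1760 nearest genes in all, and they carried 55 of 3040 peaks. The peaks come from chromatin immunoprecipitation followed by sequencing (ChIP-seq) with an antibody against green fluorescent protein (GFP), in WS-2 seedlings that expressed a CCA1-GFP fusion from the CCA1 promoter. The material was whole seedlings, 14 days old and raised under 12 h of light and 12 h of darkness a day. One set had gone on to continuous light (LL, 3 libraries), and the other stayed in the diel cycle (LD, 2 libraries). Harvest was at zeitgeber time (ZT) 2, so 2 h past the real or subjective dawn. The ZT14 library of continuous light and the input library are not analysed here. Both regimes share the ecotype, the transgene, the age and the harvest time, and whether the seedlings carry other alleles at CCA1 is not stated in the labels.

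CCA1, a transcription factor with a MYB-like domain, belongs to the core of the circadian clock. It is most abundant around dawn and is known mainly as a repressor of genes expressed later in the day. Plant fatty acids are made in the plastid, and desaturases then place double bonds in them, which keeps membranes fluid in the cold. From there they enter galactolipids of the thylakoids, phospholipids and sphingolipids of other membranes, storage oil, or the waxes of the leaf surface. Lipases release them again for signalling, such as jasmonate synthesis, or for breakdown.

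The libraries of a regime were pooled into 1 peak list, which leaves no spread between replicates and allows no test between the regimes. The LL list held 1433 peaks with 17 to 229 sequence tags each (median 26), and the LD list held 1607 peaks with 31 to 234 tags each (median 46). The authors supplied the scores, the tags, the folds over control and the nearest gene of each peak. The strength of a peak was read against its own list, as the percentage of the other peaks that scored lower (its score percentile). This was done because LD scores were mostly higher, with a median of 48 against 26 in LL, although at some shared sites the LL score was the higher one. Scores of the lists were set against each other only at overlapping peaks, as a ratio given beside that of all overlapping pairs. Tags carry exact 95% Poisson intervals and shares carry 95% Wilson intervals, and both cover counting error only. Whole seedlings were used, so a peak says nothing about which cell types held the protein.

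The label of lipid metabolism held for most but not all of the genes. Enzymes and enzyme-like proteins of lipid metabolism made up 20 of the 31: 3 desaturases, 5 enzymes that make or use fatty acyl-CoA, 4 enzymes of glycerolipid or sterol synthesis, and 8 grouped as phospholipases or lipases. The last group includes PLAT1, which is named here only for its PLAT domain. A further 8 were proteins with lipid-binding or lipid-transfer domains, and 3 matched by a word alone. Of the 31 genes, 26 had an LL peak and 24 had an LD peak. A peak in both lists was found for 19 genes (61.3%, 43.8 to 76.3), against 56.9% of all genes with a peak. A peak in LL alone was found for 7 (22.6%, 11.4 to 39.8), against 17.3% of all genes, and a peak in LD alone for 5 (16.1%, 7.09 to 32.6), against 25.8%. All 3 intervals include the value over all genes.

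**Figure D1:**
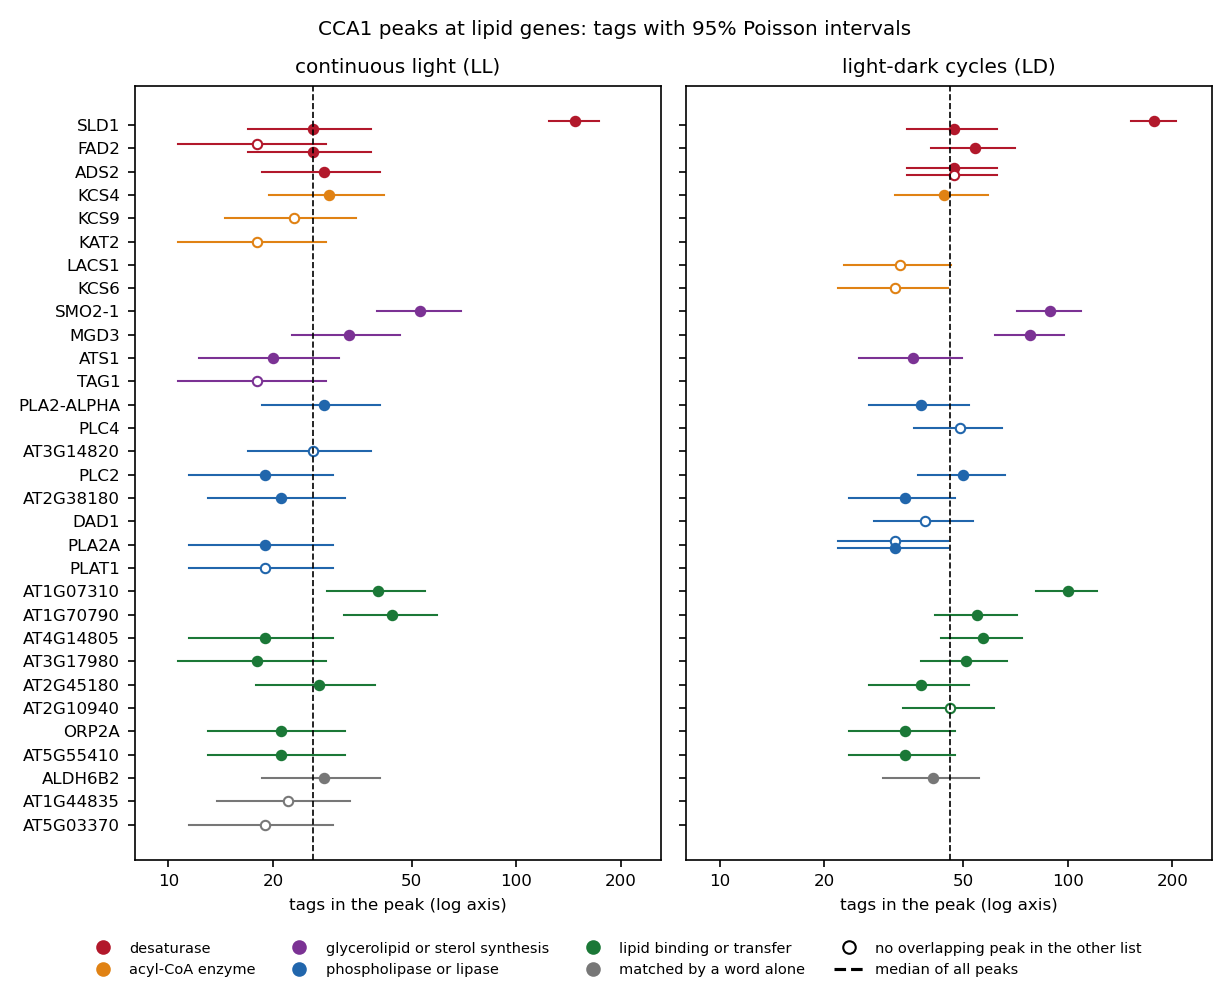
Tags in each CCA1 peak at the 31 lipid genes (log axis), in LL on the left and LD on the right, with 95% Poisson intervals as bars and genes grouped by role. Open points overlapped no peak of the other list, and the dashed line is the median of all peaks. SLD1 stood alone at the right of both panels, with 147 tags in LL and 177 in LD.

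All 3 desaturases had peaks in both lists, each at an overlapping site, against 56.9% of all genes with a peak. With 3 genes this count was not tested. SLD1 had the strongest binding of all the genes described here. SLD1 (AT3G61580) encodes the enzyme that desaturates the long-chain base of sphingolipids. Its main LL peak, on chromosome 3 from 22785162 to 22785320, scored 126 with 147 tags (124 to 173), 100.2-fold over control. The main LD peak, from 22785198 to 22785322, scored 179 with 177 tags (152 to 205), 75.7-fold over control. These were ranks 9 of 1433 and 11 of 1607, with centres 806 bp and 787 bp before the transcription start site (TSS). A further, weaker SLD1 site was also shared: it scored 25 in LL (26 tags, 17.0 to 38.1; 288 bp upstream) and 48 in LD (47 tags, 34.5 to 62.5; 310 bp upstream). The SLD1 sites were 518 bp apart in LL and 477 bp apart in LD. They stood near the middle and at the very top of each list, with score percentiles of 45.9 and 99.4 in LL and of 50.9 and 99.4 in LD.

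FAD2 (AT3G12120), the endoplasmic reticulum enzyme that turns oleate into linoleate, was bound at mid-list strength. The shared site scored 26 in LL (26 tags, 17.0 to 38.1; 655 bp upstream) and 54 in LD (54 tags, 40.6 to 70.5; 651 bp upstream). A further LL peak closer to the start, 84 bp upstream, had the lowest LL score among the lipid genes, 14 with 18 tags (10.7 to 28.4), and no LD counterpart. Its centre was 737 bp from the nearest LD peak, the one at the shared FAD2 site. ADS2 (AT2G31360, listed as DS2), an acyl desaturase known for a part in adjusting membranes to cold, had its shared peak 113 bp upstream of the TSS in both lists. That peak scored 25 in LL (28 tags, 18.6 to 40.5) and 48 in LD (47 tags, 34.5 to 62.5), with the same centre. A further LD peak at ADS2 lay 2239 bp upstream, scored 50 and also held 47 tags, and no LL peak overlapped it.

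Of the 5 enzymes that make or use fatty acyl-CoA, 1 had peaks in both lists, 2 in LL alone and 2 in LD alone. With 5 genes this count was not tested against the 56.9% of all genes with a peak in both lists. KCS4 (AT1G19440), a condensing enzyme of the elongation of very-long-chain fatty acids, carried the shared site, with a score of 31 in LL (29 tags, 19.4 to 41.7) and 47 in LD (44 tags, 32.0 to 59.1). The site lay 2110 bp (LL) and 2132 bp (LD) downstream of the KCS4 start, and the authors' annotation column places it at the transcription termination site of the neighbouring AT1G19450. KCS9 (AT2G16280), of the same family, had an LL peak of score 22 (23 tags, 14.6 to 34.5), 2210 bp downstream of its TSS and in the category of its own termination site. KCS6 (AT1G68530), the family member known for cuticular wax, had an LD peak of score 33 (32 tags, 21.9 to 45.2), 1704 bp upstream. LACS1 (AT2G47240), an acyl-CoA synthetase of wax and cutin synthesis, had an LD peak of score 34 (33 tags, 22.7 to 46.3) in intron 8 of 16, 1729 bp downstream of the TSS. KAT2 (AT2G33150, listed as PKT3), the peroxisomal thiolase that ends each turn of beta-oxidation, had an LL peak of score 19 (18 tags, 10.7 to 28.4), 33 bp upstream. KAT2 was the only one of the 5 with a peak in the promoter-TSS category, and the peaks of the other 4 lay more than 1000 bp from the start.

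In glycerolipid and sterol synthesis, 3 of 4 genes had peaks in both lists, against 56.9% of all genes with a peak. The fourth had a peak in LL alone, and with 4 genes the count was not tested. SMO2-1 (AT1G07420), a sterol methyl oxidase that removes a methyl group in the making of plant sterols, had a peak almost at its start, 23 bp upstream in LL and 17 bp upstream in LD. It scored 50 in LL (53 tags, 39.7 to 69.3; 31.9-fold over control) and 89 in LD (89 tags, 71.5 to 109.5; 29.9-fold), at score percentiles of 87.7 and 88.4. MGD3 (AT2G11810, listed as MGDC), a galactolipid synthase known to respond to phosphate starvation, was bound within the gene, in intron 1 of 7. The MGD3 peak scored 34 in LL (33 tags, 22.7 to 46.3; 819 bp downstream of the TSS) and 78 in LD (78 tags, 61.7 to 97.4; 832 bp downstream), at score percentiles of 71.8 and 83.9. ATS1 (AT1G32200), the plastid acyltransferase that starts glycerolipid synthesis there, had a weaker shared peak of score 22 in LL (20 tags, 12.2 to 30.9; 853 bp upstream) and 41 in LD (36 tags, 25.2 to 49.8; 842 bp upstream). TAG1 (AT2G19450, also DGAT1), which adds the last acyl chain of storage oil, had an LL peak of score 19 (18 tags, 10.7 to 28.4), 35 bp upstream of the TSS, and no LD peak.

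Peaks in both lists were found for 4 of the 8 genes grouped as phospholipases or lipases, against 56.9% of all genes with a peak. Of the 8 genes, 2 had a peak in LL alone and 2 in LD alone. Their scores ran from 19 to 29 in LL (median 21, against 26 over all LL peaks) and from 33 to 52 in LD (median 38, against 48 over all LD peaks). PLA2-ALPHA and AT3G14820 lay above the median of all peaks in LL, as did PLC2 and PLC4 in LD. PLA2-ALPHA (AT2G06925), a secreted phospholipase, scored 29 in LL (28 tags, 18.6 to 40.5; 102 bp upstream) and 38 in LD (38 tags, 26.9 to 52.2; 46 bp upstream). Its peak centres were 56 bp apart, the widest offset among the shared sites of these genes. PLC2 (AT3G08510), which cleaves phosphoinositides, was bound just inside the gene with scores of 20 in LL (19 tags, 11.4 to 29.7; 80 bp downstream) and 51 in LD (50 tags, 37.1 to 65.9; 55 bp downstream). Its relative PLC4 (AT5G58700) had an LD peak of score 52 (49 tags, 36.3 to 64.8), 399 bp upstream, and no LL peak. The PLC4 peak held 6.2 control tags, against a median of 3.2 over all LD peaks, and was 7.94-fold over control.

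PLA2A (AT2G26560), a patatin-like acyl hydrolase, had a shared distal site of score 19 in LL (19 tags, 11.4 to 29.7; 1404 bp upstream) and 33 in LD (32 tags, 21.9 to 45.2; 1409 bp upstream). A further LD peak at PLA2A, also of score 33 and 32 tags, lay 616 bp upstream. All 3 peaks were weak, at score percentiles of 12.9 in LL and 3.36 in LD. DAD1 (AT2G44810), the chloroplast phospholipase that releases the fatty acid precursor of jasmonate in anthers, had an LD peak of score 39 (39 tags, 27.7 to 53.3), 994 bp upstream. Of the GDSL esterase/lipase genes, which belong to a large hydrolase family, AT2G38180 had a shared site about 1 kb upstream, with scores of 22 in LL and 35 in LD. The other, AT3G14820, had an LL peak of score 28 (26 tags, 17.0 to 38.1), 272 bp upstream. PLAT1 (AT4G39730), a protein with a PLAT domain, had an LL peak of score 19, 1095 bp downstream of its TSS, in the category of its termination site.

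Of the 8 genes with lipid-binding or lipid-transfer domains, 7 had peaks in both lists, each as an overlapping pair. The count was 11 of the 20 enzyme or enzyme-like genes, and the share was 56.9% of all genes with a peak. The groups are small, and the differences between these values were not tested. AT1G07310, AT1G70790 and AT3G17980 are described by a calcium-dependent lipid-binding domain. The highest LD score of the group, 102 (100 tags, 81.4 to 121.6), belonged to AT1G07310. Its LL score of 39 (40 tags, 28.6 to 54.5) was the highest there too, tied with AT1G70790. The score percentiles of AT1G07310 were 78.8 in LL and 92.6 in LD. The peak lay 58 bp (LL) and 60 bp (LD) downstream of its TSS, and the annotation column places it in the promoter of the adjacent RPL4 (AT1G07320), a plastid ribosomal protein gene. AT1G70790 scored 39 in LL (44 tags, 32.0 to 59.1; 1365 bp upstream) and 57 in LD (55 tags, 41.4 to 71.6; 1361 bp upstream). AT3G17980, a C2-domain protein, scored 18 in LL (18 tags, 10.7 to 28.4; 188 bp upstream) and 53 in LD (51 tags, 38.0 to 67.1; 190 bp upstream).

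The genes of the lipid-transfer protein type scored from 20 to 26 in LL and from 38 to 57 in LD. AT4G14805 scored 20 in LL (19 tags, 11.4 to 29.7; 203 bp upstream) and 57 in LD (57 tags, 43.2 to 73.8; 204 bp upstream), and the annotation column gives the same sites to the promoter of AT4G14810. AT2G45180 scored 26 in LL and 42 in LD, at 354 bp and 348 bp upstream, and AT5G55410 scored 21 in LL and 38 in LD, at 760 bp and 742 bp upstream. AT2G10940 had an LD peak of score 46 (46 tags, 33.7 to 61.4), 1898 bp upstream, and no LL peak. ORP2A (AT4G22540), related to oxysterol-binding proteins that carry lipids between membranes, scored 21 in LL and 34 in LD, at 6 bp and 25 bp upstream.

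The 3 genes matched by a word alone were ALDH6B2, AT1G44835 and AT5G03370. ALDH6B2 (AT2G14170), an acylating dehydrogenase of amino acid breakdown, scored 27 in LL (15 bp downstream) and 43 in LD (17 bp downstream). AT1G44835, with a domain associated with aminoacyl-tRNA synthetases, had an LL peak of score 21, 243 bp upstream. AT5G03370, an acylphosphatase family gene, had an LL peak of score 19 with 4.2 control tags, 3467 bp upstream. That peak was 4.52-fold over control, the lowest fold among the 55 peaks of the lipid genes.

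The scores of the lipid genes ran from near the bottom to near the top of each list. Their 28 LL peaks had a median score of 22 (95% interval of the median 20 to 27), against 26 over all LL peaks, and a median score percentile of 31.7 (20.0 to 53.7). Their 27 LD peaks had a median score of 47 (38 to 53), against 48 over all LD peaks, and a median score percentile of 48.6 (23.3 to 59.9). With the peaks of a list ranked by score and split into 4 classes, the highest class held 4 of the 28 LL peaks (14.3%, 5.70 to 31.5) and 4 of the 27 LD peaks (14.8%, 5.92 to 32.5). The highest class held SLD1, SMO2-1 and AT1G07310 in both lists, with AT1G70790 in LL and MGD3 in LD. The technical values of the peaks were close to those of all peaks: median control tags were 1.95 at lipid genes in LL, against 2.1 over all LL peaks, and 3.4 in LD, against 3.2. The median GC content of the 500 bp window was 33.2% at lipid genes in LL, against 32.7% over all LL peaks, and 33.3% in LD, against 33.3%.

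Most peaks of the lipid genes lay upstream of the start, in shares whose intervals include those of all peaks. The promoter-TSS category held 20 of 28 LL peaks (71.4%, 52.9 to 84.7), against 59.4% of all LL peaks, and 18 of 27 LD peaks (66.7%, 47.8 to 81.4), against 59.0% of all LD peaks. The centre was upstream of the TSS for 21 LL peaks (75%, 56.6 to 87.3) and 21 LD peaks (77.8%, 59.2 to 89.4), against 71.8% and 69.2% over all peaks. The median distance from the TSS was 280 bp in LL (102 to 819), against 566 bp over all LL peaks, and 651 bp in LD (190 to 1026), against 538 bp over all LD peaks. Both intervals include the value over all peaks. Within 250 bp of the TSS lay 13 of 28 LL peaks (46.4%, 29.5 to 64.2), against 35.7% of all LL peaks, and 9 of 27 LD peaks (33.3%, 18.6 to 52.2), against 37.1% of all LD peaks. Intergenic sites were 4 in LL (14.3%, against 18.9% of all LL peaks) and 6 in LD (22.2%, against 19.4% of all LD peaks). Peaks at termination sites were 3 in LL (10.7%, against 14.9%) and 1 in LD (3.70%, against 14.0%), and introns held 1 in LL (3.57%, against 3.84%) and 2 in LD (7.41%, against 3.86%). No peak of the lipid genes lay in an exon or an annotated untranslated region, and such peaks were rare over all peaks too, with 1.95% of LL peaks and 2.43% of LD peaks in exons.

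**Figure D2:**
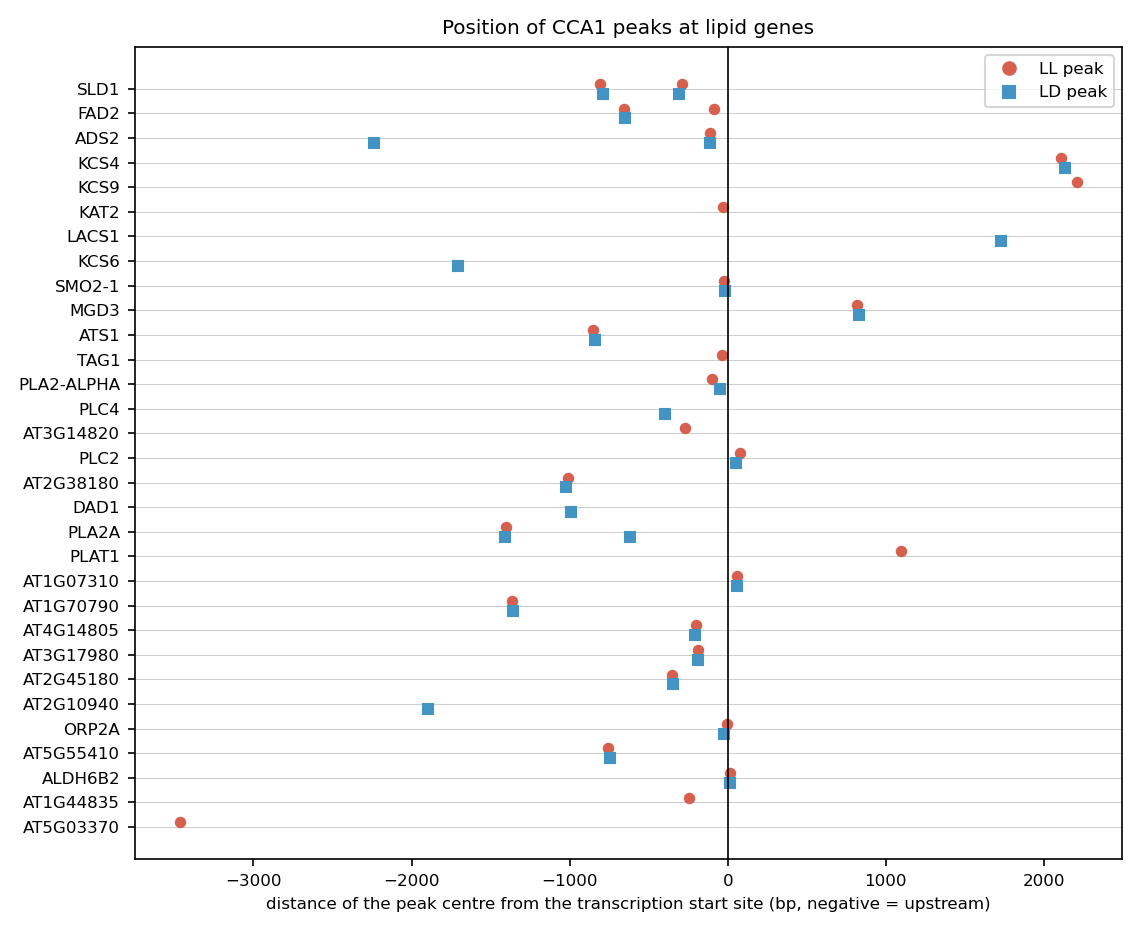
Distance of each CCA1 peak centre from the TSS of its nearest gene in bp, with LL peaks as circles and LD peaks as squares, 1 row for each of the 31 genes. LL and LD points lie nearly on top of each other at the shared sites, and SLD1, FAD2, ADS2 and PLA2A have further sites.

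More than 1 peak in a list was seen at SLD1 and FAD2 in LL (2 of 26 genes, 7.69%) and at SLD1, ADS2 and PLA2A in LD (3 of 24 genes, 12.5%). Over all genes these shares were 7.73% and 8.32%. SLD1 was the only one of these genes with both sites in both lists. In FAD2, ADS2 and PLA2A, 1 site was shared and the other was found in 1 list, and the sites were 741 bp apart at FAD2, 2126 bp at ADS2 and 793 bp at PLA2A. The additional site was on the TSS side of the shared site at FAD2 and PLA2A and on the distal side at ADS2.

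The design sets CCA1 binding in continuous light beside binding in diel cycles. At lipid genes 20 of 28 LL peaks shared at least 1 bp with an LD peak (71.4%, 52.9 to 84.7), against 74.6% of all LL peaks. In the other direction 20 of 27 LD peaks overlapped an LL peak (74.1%, 55.3 to 86.8), against 66.5% of all LD peaks. The centres of the overlapping peaks differed by 0 to 56 bp (median 8.5), and by at most 25 bp in 19 of 20 pairs. Over all overlapping pairs the median offset was 15 bp, and 746 of 1069 pairs lay within 25 bp. Each of the 20 pairs was assigned to the same gene in both lists. Peaks that overlap cannot be far apart, so these offsets are a description only.

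The balance of LL and LD scores at shared lipid sites was close to that of all shared sites. The log2 ratio of LL score to LD score had a median of -0.84 over the 20 pairs (95% interval of the median -1.05 to -0.67), against -0.87 over all 1069 overlapping pairs. All 20 ratios were below 0, from -1.56 to -0.39, and 90% of all pairs lay between -1.56 and -0.25. The lowest ratios belonged to AT3G17980 (-1.56), AT4G14805 (-1.51), AT1G07310 (-1.39) and PLC2 (-1.35), at the percentiles 5.24, 6.65, 11.4 and 13.6 of all pairs. At these 4 genes the score percentile, which ranks the same scores, was lower in the LL list than in the LD list. It was 6.39 against 59.9 at AT3G17980 and 20.0 against 56.3 at PLC2, and it is not a separate measure of the difference. The highest ratios belonged to PLA2-ALPHA (-0.39) and the main SLD1 site (-0.51), at the percentiles 89.9 and 83.4. The score percentile was higher in LL than in LD for 10 of the 20 pairs, against 46.6% of all pairs. With pooled lists these ratios have no error between plants, and none was called different from the rest.

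**Figure D3:**
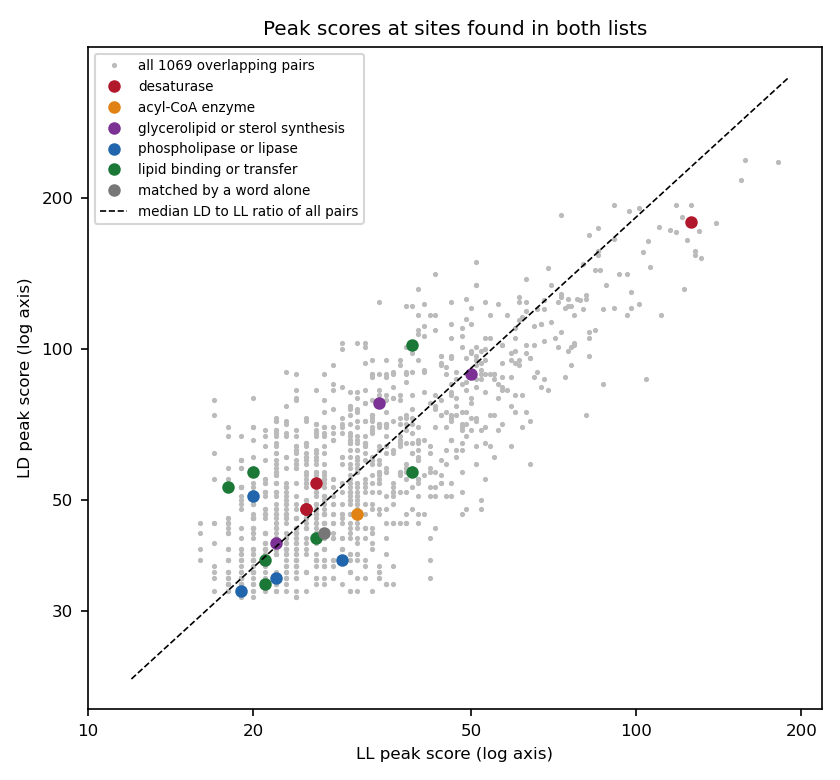
LD score against LL score (both log axes) at the 1069 sites found in both lists, in grey, with the 20 sites at lipid genes coloured by role. The dashed line is the median LD to LL ratio of all pairs, and 2 desaturase sites, the weaker one of SLD1 and that of ADS2, fall on the same point (25 in LL, 48 in LD).

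A peak in a single list was found for 12 genes, and these peaks were mostly weak. In LL they were AT3G14820, KCS9, AT1G44835, TAG1, KAT2, PLAT1 and AT5G03370, with score percentiles from 12.9 to 56.9 (median 12.9). In LD they were PLC4, AT2G10940, DAD1, LACS1 and KCS6, with score percentiles from 3.36 to 58.1 (median 27.2). The single-list peaks of all genes had median score percentiles of 20.0 in LL and 27.2 in LD. In the lowest score class 42.2% of all LL peaks and 36.2% of all LD peaks overlapped a peak of the other list, so a missing counterpart is common at that strength. TAG1, KAT2, PLAT1 and AT5G03370 were in that class in LL, and LACS1 and KCS6 were in it in LD. The least common absences were those of AT3G14820 in LD and PLC4 in LL, since 86.3% of LL peaks and 79.1% of LD peaks of their score class overlapped a peak of the other list. The nearest peak of the other list was far away in all 12 cases, from 13890 to 250817 bp for the LL genes and from 7471 to 184592 bp for the LD genes. At KCS6 the nearest LL peak, 7471 bp away, was assigned to AT1G68520.

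Genes of the lipid pathways were also taken from 9 lists of textbook enzymes, whether or not the description rule had found them, 129 genes in all. An LL peak was found for 13 of them (10.1%, 5.98 to 16.5) and an LD peak for 13 (10.1%, 5.98 to 16.5), against 3.38% and 3.77% of the 37899 nuclear genes and 4.37% and 4.90% of the protein-coding ones. The lists were drawn up with the SLD1 result known, and the count was not tested. Of the 16 textbook genes with a peak in LL or LD, 11 were already among the lipid genes described above. The shares therefore mostly count those genes again. Binding was found in both lists for 2 of 9 desaturation genes (FAD2 and ADS2) and 2 of 15 sphingolipid genes (SLD1 and LOH2). The same held for 2 of 11 galactolipid and plastid lipid genes (MGD3 and ATS1) and 3 of 15 phospholipid genes. It held for 1 of 17 beta-oxidation and oxylipin genes and for none of 22 wax and cutin or 12 storage lipid genes. Of the 16 textbook genes with a peak, 10 had one in both lists, against 56.9% of all genes with a peak. No peak was assigned to any of 13 genes of plastid fatty acid synthesis or any of 15 sterol genes, although SMO2-1, which the sterol list did not hold, had a peak. With 13 and 15 genes, shares of up to 22.8% and 20.4% remain within the 95% intervals.

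**Figure D4:**
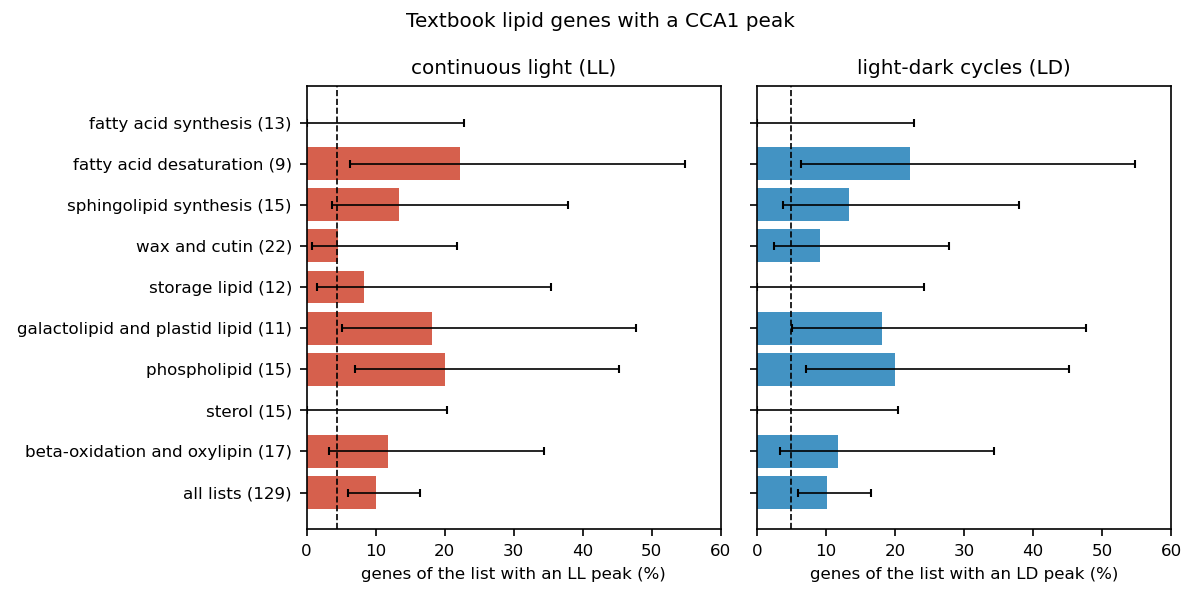
Percentage of the genes of each textbook list with an LL peak (left) or an LD peak (right), with 95% Wilson intervals as bars, the number of genes in brackets and the share of protein-coding genes with a peak as a dashed line (4.37% and 4.90%). Over all lists the share was 10.1% in each regime. The intervals of the desaturation, galactolipid and phospholipid lists and of all lists together lie above the dashed line in both panels. Those of the other lists include it. The lists were chosen with earlier results of these data known, so these positions are a description only and were not tested.

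Of the 16 textbook genes with a peak in either list, 5 were outside the description rule, and all 5 had overlapping peaks in both regimes. XPL1 (AT3G18000), a methyltransferase that makes phosphocholine, scored 26 in LL and 63 in LD, 369 bp upstream in both. PECT1 (AT2G38670), which activates ethanolamine for phosphatidylethanolamine, scored 30 in LL and 52 in LD, at 53 bp and 16 bp upstream. PSS1 (AT1G15110), a phosphatidylserine synthase, scored 19 in LL and 36 in LD, at 2282 bp and 2269 bp upstream. LOH2 (AT3G19260), a ceramide synthase, scored 21 in LL and 60 in LD, at 538 bp and 483 bp upstream. LOX2 (AT3G45140), the chloroplast lipoxygenase of jasmonate synthesis, scored 25 in LL and 46 in LD, at 292 bp and 257 bp upstream. The XPL1 and AT3G17980 peaks are close neighbours on chromosome 3, from 6153915 to 6154073 and from 6151854 to 6152012 in LL.

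The gene given to a peak depends on the assignment. The annotation column names another gene than the nearest promoter for 3 of 28 LL peaks and 3 of 27 LD peaks, those at AT1G07310, KCS4 and AT4G14805, and with that column these 3 genes drop out and 28 remain. It also adds sites to textbook genes. At FAD5 (AT3G15850), a plastid desaturase, a peak in its promoter was assigned to the adjacent AT3G15840. The lists measure its distance from different transcript models of AT3G15840, so these distances are not compared, and the LL and LD centres lay 13 bp apart. It scored 67 in LL (chromosome 3 from 5358476 to 5358634, score percentile 94.4) and 84 in LD (5358480 to 5358604, score percentile 86.6), higher in its list than the FAD2 and ADS2 peaks. A site at the 3' end of LACS2 (AT1G49430), an acyl-CoA synthetase of cutin synthesis, was assigned to AT1G49435 and scored 30 in LL and 67 in LD. Weak LD peaks at PAH1 (score 32) and AOS (score 33) were likewise given to neighbouring genes. Which gene such a site acts on was not tested.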

How the data were processed

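The submitters' processing notes name HOMER 4.7, Bowtie2 2.2.1, Trimmomatic 0.33 and CASAVA 1.8, and TAIR10 as the build. Per the file headers, the peaks passed an irreproducible discovery rate step on combined libraries (its top set) and were annotated with annotatePeaks.pl in a 500 bp window. Per the labels' protocols, chromatin was fixed with 1% formaldehyde for 20 min, and anti-GFP was used, with IgG and input as controls. The deposited lists give, per peak, a score, the tag count, a scaled signal of control tags, the fold ratio over control and a GC fraction, among other columns not used here. The total reads behind each list and the control library used are not stated. Coordinates are on TAIR10, as deposited. Pooling leaves no replicate to compare.

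Gene lists were joined to peaks by identifier, with RING read in capitals and other words with case ignored. All 31 genes matched the RefSeq table of TAIR10.1, used for names alone. Peaks were paired by an overlap of at least 1 bp. In the score percentile, tied peaks share the mean of their ranks. Intervals of medians are binomial order statistics. Python 3.11.15, pandas 2.3.3, NumPy 2.4.6 and SciPy 1.17.1 were used, and the pairing was tested on simulated peaks. The members, roles and textbook lists were chosen with earlier results of these data known. Scores were to be given for the genes with the 15 highest scores of each list, those in a single list, those with more than 1 peak and SLD1. The additional sites of the annotation column and the neighbouring XPL1 and AT3G17980 peaks were chosen after their values were seen. Of 130 textbook genes, 129 matched by name. A motif search was planned and was not run, since it needs sequence.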

Additional observations from a re-analysis of the deposited data

How the results depend on the processing

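Of 53 recomputed values 43 stayed close to those reported (counts within 1.5 times, other values within their 95% interval) and 10 moved. The sign of the LL to LD ratio was kept under its 3 alternatives. Most pairs of the series share that sign, with a median of -0.87 over all 1069 pairs, so keeping it says little about the lipid genes. Among the upper 50% of each list by score, 10 genes had an LL peak, 11 an LD peak and 5 a peak in both. Of the lipid gene peaks there, 50% in LL and 38.5% in LD overlapped, and 4 and 7 textbook genes had a peak. Fewer peaks enter by construction. The same shares over all genes and peaks were not computed, so these values are not read as particular to the lipid genes. With peak centres limited to 1000 bp before and 500 bp after the TSS, 7 genes had a peak in a single list. All lipid gene peaks kept by that window were in the promoter-TSS category (100% in LL and 100% in LD). The same share over all peaks in the window was not computed, so it is not read as particular to the lipid genes. Peaks at least 8-fold over control, equal numbers of peaks, an overlap of 50% of both peaks, centres within 500 bp, tags or fold in place of the score, the gene of the annotation column (28 genes), RING with case ignored, and dropping no description (33 genes) moved no value by that measure. Leaving out the 3 genes matched by a word alone, chosen after the data were seen, moved none either. No paired analysis was possible because each list pools its libraries, and for the same reason no replicate could be left out. Relative to the count, counting error is largest at the weak LL peaks of the lipid genes: those of 18 tags have intervals from 10.7 to 28.4.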

Other observations

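Chromosome 2 held 13 of the 31 (41.9%, 95% Wilson interval 26.4 to 59.2), among them MGD3, TAG1, KAT2, ADS2, DAD1 and LACS1, against 17.3% of all 1760 genes with a peak. Chromosome 1 held 7 (22.6%, against 24.9% of all genes with a peak), chromosome 3 held 5 (16.1%, against 18.9%), chromosome 4 held 3 (9.68%, against 14.2%) and chromosome 5 held 3 (9.68%, against 24.7%). The intervals of these 4 shares include the value over all genes, and that of chromosome 2 does not. The count on chromosome 2 was noticed in the data and was not tested, and its interval does not allow for that choice among the chromosomes. The 2 genes that the excluded words removed had LD peaks close to their starts: AT3G11720, of a lipid transport family (score 45, score percentile 43.8, 25 bp downstream of the TSS), and AT1G26130, a phospholipid-transporting ATPase (score 41, score percentile 33.5, 16 bp downstream).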
